A study of Mus musculus with 31 samples.

Results

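The genes described here are used as markers of dendritic cells and Langerhans cells in mouse skin: Cd207, Epcam, Itgax, Cd209a, Ccr7, Flt3 and Zbtb46. Epcam among them is carried by epithelial cells as well. They were chosen by name, each through the probe sets that the array's annotation assigns to that symbol alone, with the probe set of highest mean standing for the gene. They are 7 of the 18193 genes measured in this way. Skin of C3H/HeJ mice with established AA, read here as alopecia areata, an autoimmune loss of hair that this strain is known to develop, was profiled on 31 Affymetrix arrays. The mice received topical PBS or one of the JAK inhibitors labelled jak1i and jak3i, which are known here only by these codes and whose doses are not given in the sources used here. Each arm had 3 arrays at 0, 6 and 12 weeks, the inhibitor arms had 2 arrays each at 24 weeks, and PBS at 24 weeks was not analysed here. All groups share the strain, the tissue and the disease, so there is no group of healthy skin among the arrays analysed. The replicates are described as biological, and nothing says whether a mouse was sampled at more than 1 week.

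Dendritic cells take up antigen in tissue, move to lymph nodes through lymphatic vessels and present the antigen to T cells. Langerhans cells are the antigen-presenting cells of the epidermis, whereas conventional dendritic cells sit in the dermis. JAK kinases carry the signals of interferons and of many cytokines into the cell, and their inhibition blocks those signals. In alopecia areata, T cells and antigen-presenting cells gather around the hair follicle.

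The promoters of 4 members are shown because their genes are used as a marker of Langerhans cells (Cd207) or changed against PBS at 6 or 12 weeks (Epcam, Itgax, Cd209a). Each is the 250 bases before a RefSeq transcription start in GRCm38.p6, printed 5′ to 3′ on the strand of the gene, and capitals mark the only motif match found. The Itgax window ends at 128129549, past the start of the gene's span at 128129526, so its last bases lie within that span.
Cd207 (chr6:83677858-83678107, minus strand): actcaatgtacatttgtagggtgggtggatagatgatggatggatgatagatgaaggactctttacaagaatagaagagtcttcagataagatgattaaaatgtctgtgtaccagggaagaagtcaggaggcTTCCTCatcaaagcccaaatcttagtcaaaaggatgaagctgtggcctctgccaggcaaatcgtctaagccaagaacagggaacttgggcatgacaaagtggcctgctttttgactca
Epcam (chr17:87635729-87635978, plus strand): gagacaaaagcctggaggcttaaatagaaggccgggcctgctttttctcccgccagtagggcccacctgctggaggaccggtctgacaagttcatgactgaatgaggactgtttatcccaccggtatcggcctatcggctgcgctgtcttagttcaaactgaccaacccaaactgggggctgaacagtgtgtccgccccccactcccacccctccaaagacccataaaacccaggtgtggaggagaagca
Itgax (chr7:128129300-128129549, plus strand): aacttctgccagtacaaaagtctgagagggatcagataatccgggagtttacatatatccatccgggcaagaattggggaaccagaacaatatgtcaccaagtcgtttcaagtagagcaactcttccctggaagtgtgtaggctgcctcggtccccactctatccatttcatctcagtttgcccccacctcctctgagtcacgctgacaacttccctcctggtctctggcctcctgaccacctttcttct
Cd209a (chr8:3748985-3749234, minus strand): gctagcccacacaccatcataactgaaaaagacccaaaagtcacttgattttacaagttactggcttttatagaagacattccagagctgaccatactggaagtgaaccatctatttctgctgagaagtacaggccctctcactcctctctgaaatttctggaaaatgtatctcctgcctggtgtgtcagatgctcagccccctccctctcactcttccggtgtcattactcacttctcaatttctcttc

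RefSeq windows matched 6 of the 7 members. The Zbtb46 window (chr2:181424389-181424638, minus strand) lay inside the span of its gene, 181371009 to 181493262, and not before the outer end of that span. Searched on both strands were the STAT-type element TTCNNNGAA, the interferon-type element GAAANNGAA and GAGGAA, the core of sites bound by the myeloid factor PU.1. GAGGAA was found in the Cd207 window, read on the opposite strand at −118 to −113 from the start, and in 23.3% of all 32851 mouse windows of this length. No other match was found in the windows of the 6 members, and TTCNNNGAA and GAAANNGAA were present in 7.0% and 7.1% of all windows. The Cd207 and Cd209a windows held 43.6% and 44.8% G and C with 1 CG pair each, against a median of 52.4% and 6 pairs, while the Epcam window held 56.4% and 8 pairs.

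Values are log2 intensities after RMA, so a difference of 1 is a doubling, and a gene was counted as changed at a limma p, adjusted by Benjamini-Hochberg over all 18193 genes, under 0.05. Groups are described as apart, or without overlap, where every array of a group lay above every array of the other. How often this held over all genes is not given here, and groups this small can lie apart by chance. Such statements therefore describe the arrays and are not tests. Cd207 and Epcam lay above the median of all values, 6.18, on all 31 arrays, Zbtb46 on 28, Itgax on 27 and Cd209a on 22. Flt3 lay above it on 11 and Ccr7 on 4, so their signals were dim. Epidermal keratinocyte markers, 8 of 8 measured, averaged between 12.75 and 13.12 in every group, and B cell markers (5 of 6) between 4.70 and 5.11. The markers of the hair shaft, T cells and skeletal muscle spanned wider ranges. Hair shaft markers (10 of 12 measured) averaged between 10.47 and 11.18 in the PBS groups and at the start of each arm, and between 6.55 and 9.03 in the treated groups. T cell markers (6 of 8) averaged between 7.35 and 8.03 in the former and between 6.56 and 7.69 in the latter. Skeletal muscle markers (8 of 8) averaged 7.24 in PBS at 12 weeks and between 11.58 and 12.63 in the other 10 groups. In whole skin, fewer cells of a type and less RNA per cell cannot be told apart.

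Against PBS at the same week, Epcam was lower and Cd209a higher in jak3i skin, and Itgax was lower in jak1i skin. At 6 weeks 0 members changed with jak1i, where 1.36% of all genes did (1.22% lower and 0.143% higher), and 3169 genes had an unadjusted p under 0.05, among them Itgax, Ccr7 and Epcam. With jak3i at 6 weeks 1 member changed, Epcam, against 1.94% of genes (1.5% lower, 0.445% higher). At 12 weeks 1 member changed with jak1i, Itgax, against 13.4% of genes (6.51% lower, 6.85% higher). With jak3i at 12 weeks 2 changed, Cd209a up and Epcam down, against 17.3% (7.28% lower, 10.0% higher). These 12-week shares, 2431 genes for jak1i and 3148 for jak3i, were smaller with other control arrays and with a hair shaft covariate. With the PBS arrays of 6 weeks as control, 15 and 419 genes passed. With the mean of the hair shaft markers as a covariate, 400 and 147 passed. At 12 weeks this mean was 10.22 to 11.91 on PBS arrays, 6.45 to 8.27 in jak1i and 5.51 to 8.10 in jak3i. The starting arrays of the inhibitor arms, 9.57 to 12.04 and 10.37 to 12.19, lay above their 12-week arrays as well. At 12 weeks the covariate therefore cannot be told apart from treatment, here and for the single genes below. The comparisons with PBS at 1 week share their PBS arrays, and those with the start of an arm share its 0-week arrays.

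Counted from the start of their own arm, jak1i mice had 4 of 7 members changed at 6 weeks (12.4% of all genes), 5 at 12 weeks (16.3%) and 2 at 24 weeks (1.19%). The jak3i mice had 1 at 6 weeks (3.15%), 2 at 12 weeks (10.3%) and 0 at 24 weeks (0.11%). In the PBS arm 0 members changed at 6 weeks (0.0055% of genes) and 0 at 12 weeks (2.28%), where 1786 and 2960 genes had an unadjusted p under 0.05 and none of these was a member. At the start of treatment 0 members differed between jak1i and PBS or between jak3i and PBS (0.0% and 0.0% of genes, with 917 and 1378 genes at an unadjusted p under 0.05, again without a member). The median log2 difference of the members at 12 weeks was 0.07 for jak1i and 0.15 for jak3i against PBS, beside −0.03 over all genes in both.

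**Figure D1:**
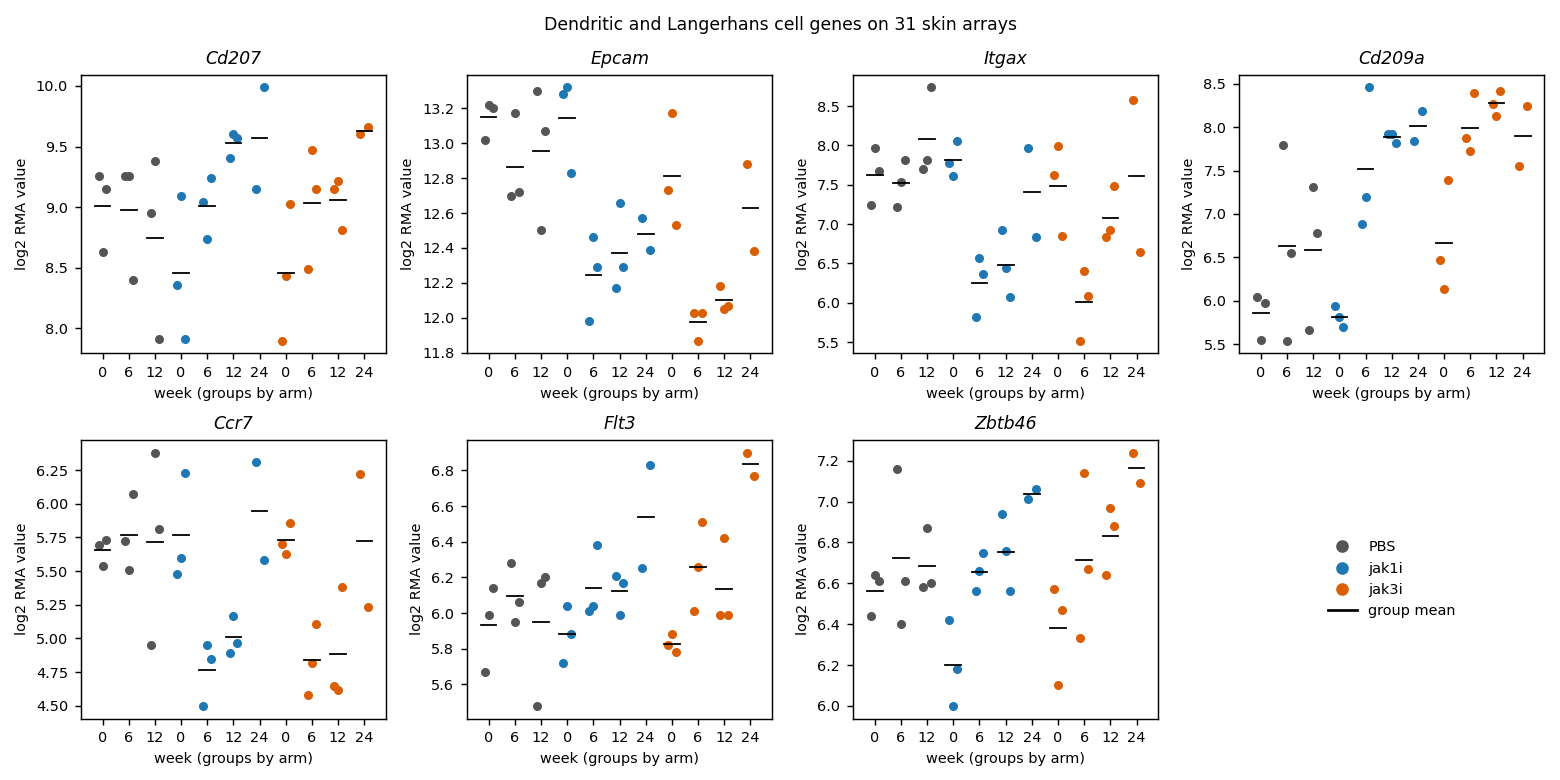
Log2 RMA value (y axis) of each of the 7 genes on each of the 31 arrays, by week (x axis) within the PBS, jak1i and jak3i arms. Points are arrays and bars are group means. Epcam on the jak3i arrays at 6 and 12 weeks lies between 11.87 and 12.18, below all 9 PBS arrays, the lowest of which is 12.50.

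Epcam encodes an adhesion molecule that Langerhans cells carry and that epithelial cells, among them those of the follicle, carry as well (Entrez gene 17075, chr17:87635979-87651127 in GRCm38.p6). It was lower in both inhibitor arms. In the PBS arm its values were 13.02, 13.22 and 13.20 at 0 weeks, 12.70, 13.17 and 12.72 at 6 weeks, and 13.30, 12.50 and 13.07 at 12 weeks. The jak3i arm had 12.73, 13.17 and 12.53 at the start, 12.03, 11.87 and 12.03 at 6 weeks, 12.18, 12.05 and 12.07 at 12 weeks, and 12.88 and 12.38 at 24 weeks. Every jak3i array at 6 and 12 weeks therefore lay below every PBS array and below its own start. The difference from PBS was −0.88 (SE 0.20, 1.84-fold, limma adjusted p 0.0237) at 6 weeks and −0.85 (SE 0.20, 1.81-fold, adjusted p 0.00883) at 12 weeks, and from its own start −0.83 (adjusted p 0.0267) and −0.71 (adjusted p 0.0341).

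In the jak1i arm Epcam read 13.28, 13.32 and 12.83 at the start, 11.98, 12.46 and 12.29 at 6 weeks, 12.17, 12.66 and 12.29 at 12 weeks, and 12.57 and 12.39 at 24 weeks. From its own start it fell by 0.90 at 6 weeks (SE 0.20, limma adjusted p 0.00821) and fell by 0.77 to 12 weeks (SE 0.20, adjusted p 0.0132), without overlap at either time. Against PBS the differences, −0.62 and −0.58, did not pass (adjusted p 0.126 and 0.0564), and at 12 weeks the groups overlapped. At 24 weeks the differences from the start were −0.66 in jak1i (adjusted p 0.0989) and −0.18 in jak3i (adjusted p 0.697). The second Epcam probe set ran with the first (r = 0.89 over 31 arrays) and was lower by a smaller amount with jak3i at 12 weeks, −0.54 (SE 0.16, adjusted p over all probe sets 0.0281).

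The Epcam calls were sensitive to single arrays. For jak3i against PBS at 6 weeks the call was lost without jak3i replicate 2 or 3 or PBS replicate 2 or 3 (values −0.96 to −0.73, adjusted p 0.0518 to 0.177), and at 12 weeks without PBS replicate 1 (−0.68, adjusted p 0.0547). From the own start it was lost for jak1i at 6 weeks without replicate 1 of that week (−0.77, adjusted p 0.0593). At 12 weeks it was lost without replicate 1 or 2 of week 0 or replicate 1 of week 12 (−0.70 to −0.67, adjusted p 0.0507 to 0.0716). For jak3i at 6 weeks it was lost without replicate 1 or 2 of week 0 or 2 or 3 of week 6 (−0.87 to −0.65), and at 12 weeks without any of its arrays other than replicate 3 of week 0 (−0.75 to −0.53, adjusted p 0.0567 to 0.164). For jak1i against PBS at 12 weeks, Epcam passed without jak1i replicate 2 (−0.72, adjusted p 0.0468) or PBS replicate 2 (−0.81, adjusted p 0.0118).

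The mean of Epcam over the arrays, 12.62, lay above those of 99.0% of genes. Its r was 0.11 (−0.37 within groups) with the mean of 10 Langerhans cell genes and 0.25 (0.13) with that of the epidermal keratinocyte markers. The r of Cd207 with the same Langerhans list was 0.23 (0.13 within groups), so this list mean followed neither gene closely. Over the 31 arrays Epcam ran with the mean of the T cell markers (r = 0.91, and 0.72 once group means were subtracted). It ran against that of the sebaceous gland markers (r = −0.83 and −0.61, 6 of 7 measured). The sebaceous mean lay between 9.53 and 10.46 in PBS and at the start of each arm, and between 10.65 and 11.38 in the treated groups. With the hair shaft mean as a covariate the difference of jak3i from PBS was −0.80 at 6 weeks (limma adjusted p 0.052) and −0.67 at 12 weeks (adjusted p 0.166). The part of the T cells and sebaceous glands in the Epcam result was not tested.

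Cd207, the gene of langerin, the lectin that forms the Birbeck granules of Langerhans cells (Entrez gene 246278, chr6:83671207-83677857), was not lower in any treated group than at the start of its arm. Which cells of the skin carried Cd207 was not tested. The PBS arm had 9.26, 8.63 and 9.15 at 0 weeks, 9.26, 9.26 and 8.40 at 6 weeks, and 8.95, 9.38 and 7.91 at 12 weeks. In the jak1i arm the values were 8.36, 9.09 and 7.91, then 9.04, 8.74 and 9.24, then 9.41, 9.60 and 9.57, and at 24 weeks 9.15 and 9.99. The jak3i arm gave 7.90, 8.43 and 9.03, then 8.49, 9.47 and 9.15, then 9.15, 9.22 and 8.81, and finally 9.60 and 9.66. From the start to 12 weeks Cd207 rose in jak1i by 1.07 (SE 0.36, 2.10-fold, limma adjusted p 0.0454), with no overlap between the groups, and in jak3i the difference was 0.61 (adjusted p 0.244).

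At 24 weeks Cd207 stood 1.12 above the start in jak1i (limma adjusted p 0.121) and 1.18 above it in jak3i (adjusted p 0.168), without overlap in either arm. Neither difference passed, and the lack of overlap in groups this small is a description only. Against PBS at 12 weeks the differences were 0.78 in jak1i (adjusted p 0.149, groups apart) and 0.31 in jak3i (adjusted p 0.575). The starting means of the inhibitor arms were each 0.56 below PBS at 0 weeks, by less than the spread between arrays (adjusted p 0.99 and 0.793). The rise in jak1i was lost without replicate 1 or 3 of week 0 or any array of week 12 (values 0.80 to 1.13, adjusted p 0.0966 to 0.175), and after centring each array on its median (1.02, adjusted p 0.0511). Cd207 ran against the hair shaft mean over the arrays (r = −0.71, and −0.68 within groups), and with that mean as a covariate the rise was 0.47 (adjusted p 0.385).

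Itgax encodes CD11c, the integrin chain by which dendritic cells are commonly sorted (Entrez gene 16411, chr7:128129526-128150657). It was lower in jak1i skin at 6 and 12 weeks than at the start, and at 24 weeks it differed from the start by −0.41 (limma adjusted p 0.672). PBS arrays read 7.24, 7.97 and 7.67 at 0 weeks, 7.22, 7.54 and 7.82 at 6 weeks, and 7.70, 7.81 and 8.74 at 12 weeks. The jak1i arrays read 7.78, 7.61 and 8.06, then 5.82, 6.57 and 6.36, then 6.92, 6.44 and 6.07, and at 24 weeks 7.97 and 6.84. All 6 jak1i arrays at 6 and 12 weeks lay below all 9 PBS arrays. Relative to PBS, Itgax was lower at 12 weeks, with a difference of −1.61 (SE 0.41, 3.05-fold, limma adjusted p 0.0152), and the difference at 6 weeks, −1.28, did not pass (adjusted p 0.126).

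From its own start Itgax in jak1i fell by 1.57 at 6 weeks (SE 0.41, limma adjusted p 0.0186) and fell by 1.34 to 12 weeks (SE 0.41, adjusted p 0.0312). The change to 12 weeks, less the change in PBS, was −1.80 (95% interval −3.02 to −0.59, adjusted p 0.0628, where 6.85% of genes passed). It passed when dim genes were left out (adjusted p 0.0498) and when the compared arrays were fitted alone (adjusted p 0.0234). In jak3i the arrays read 7.63, 7.99 and 6.85, then 5.52, 6.41 and 6.09, then 6.84, 6.92 and 7.48, and 8.58 and 6.64 at 24 weeks. Its 6-week arrays lay below PBS and below their own start without overlap, with differences of −1.52 (adjusted p 0.0585) and −1.48 (adjusted p 0.0507) that did not pass. With dim genes left out these had adjusted p of 0.0456 and 0.0395. At 12 weeks the jak3i arrays lay below PBS without overlap as well, with a difference of −1.01 that did not pass (limma adjusted p 0.0928). From their own start they differed by −0.41 at 12 weeks (adjusted p 0.5).

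The call of Itgax for jak1i against PBS at 12 weeks was lost without jak1i replicate 3 or PBS replicate 3, the highest array of that group (values −1.40 to −1.28, limma adjusted p 0.0702 to 0.11), and against the PBS arrays of 6 weeks (−1.05, adjusted p 0.206). From the own start it was lost at 6 weeks without replicate 1 or 3 of week 0 or replicate 1 of week 6 (−1.59 to −1.35), and at 12 weeks without replicate 1 or 3 of week 0 or replicate 2 or 3 of week 12 (−1.36 to −1.14). For jak3i at 6 weeks, Itgax passed against PBS without PBS replicate 1 (−1.67, adjusted p 0.0448) and against its start without replicate 3 of week 0 (−1.80, adjusted p 0.0274). With the hair shaft mean as a covariate the jak1i difference at 12 weeks was −1.23 from PBS (adjusted p 0.144) and −0.97 from the start (adjusted p 0.207), while the fall at 6 weeks still passed. Over the arrays Itgax ran with the mean of 14 genes of mature dendritic cells (r = 0.93, and 0.83 within groups). Its r with the mean of 7 genes of cDC1, dendritic cells that cross-present antigen, was 0.92 (0.79 within groups). It also ran with the T cell mean (r = 0.81 and 0.62), whose part was not tested.

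Cd209a encodes a mouse relative of the human lectin DC-SIGN, found on dermal and monocyte-derived dendritic cells (Entrez gene 170786, chr8:3743395-3748984). It was higher in both inhibitor arms. PBS arrays read 6.04, 5.55 and 5.97 at 0 weeks, 7.79, 5.54 and 6.55 at 6 weeks, and 5.66, 7.31 and 6.78 at 12 weeks. The jak1i arrays read 5.94, 5.81 and 5.70, then 6.88, 7.20 and 8.46, then 7.92, 7.92 and 7.82, then 7.84 and 8.19. The jak3i arrays read 6.47, 6.13 and 7.39, then 7.87, 7.72 and 8.39, then 8.27, 8.13 and 8.42, then 7.55 and 8.24. PBS at 6 and 12 weeks was spread widely (SD 1.13 and 0.84, n = 3), whereas the jak1i and jak3i arrays at 12 weeks were close together (SD 0.06 and 0.14, n = 3) and lay above every PBS array of any week.

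Against PBS at 12 weeks Cd209a was higher in jak3i by 1.69 (SE 0.46, 3.23-fold, limma adjusted p 0.0173), and the difference in jak1i, 1.30, did not pass (adjusted p 0.0607). From the start Cd209a rose in jak1i by 1.70 at 6 weeks (adjusted p 0.0203), by 2.07 at 12 weeks (SE 0.46, 4.19-fold, adjusted p 0.00603) and by 2.20 at 24 weeks (SE 0.51, adjusted p 0.0441). In jak3i it rose by 1.61 at 12 weeks (adjusted p 0.0345), and the differences of 1.33 at 6 weeks and 1.23 at 24 weeks did not pass (adjusted p 0.0919 and 0.23). In PBS the differences from the start were 0.77 and 0.73 (adjusted p 0.609 and 0.46). Less the change in PBS, the changes to 12 weeks were 1.34 in jak1i and 0.88 in jak3i, and neither passed (adjusted p 0.198 and 0.415). In the jak3i comparison of changes 4.55% of genes passed, and 0 members passed in either arm, with Cd207 and Itgax in jak1i and Ccr7 in jak3i at an unadjusted p under 0.05.

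The rise of Cd209a in jak1i to 12 weeks held without each of the 6 arrays in turn (2.01 to 2.13) and with the hair shaft covariate. At 6 weeks it was lost without any array of week 0 or without replicate 3 of week 6 (1.22 to 1.76, limma adjusted p 0.0511 to 0.126), and at 24 weeks without any of the 5 arrays (2.02 to 2.37, adjusted p 0.0542 to 0.725). For jak3i it was lost against PBS at 12 weeks without jak3i replicate 1 or PBS replicate 1 (1.23 to 1.69, adjusted p 0.0587 to 0.103) and from the start without any array other than replicate 3 of week 0 (1.34 to 1.68). Against PBS, it passed for jak1i at 12 weeks without PBS replicate 2 (1.66, adjusted p 0.0269) and for jak3i at 6 weeks without PBS replicate 1 (1.95, adjusted p 0.0163, main difference 1.37), and for jak3i at 6 weeks from the start without replicate 3 of week 0 (1.69, adjusted p 0.0475). Against the PBS arrays of 6 weeks the jak3i difference at 12 weeks was 1.65 (adjusted p 0.0542), and with the hair shaft covariate 1.44 (adjusted p 0.207).

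The mean of 10 genes of cDC2 and dermal dendritic cells ran with Cd209a over the arrays (r = 0.80, and 0.86 within groups). Mast cell markers (5 of 5 measured) moved with Cd209a as well (r = 0.91, and 0.80 within groups). Their mean was 6.52 to 7.87 in PBS and at the start of each arm and 8.68 to 9.28 in the treated groups. Macrophage markers (10 of 10) ran with Cd209a within groups (r = 0.70) and less so over all arrays (r = 0.39), with group means from 8.57 to 9.51. The part of mast cells and macrophages in the Cd209a result was not tested.

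**Figure D2:**
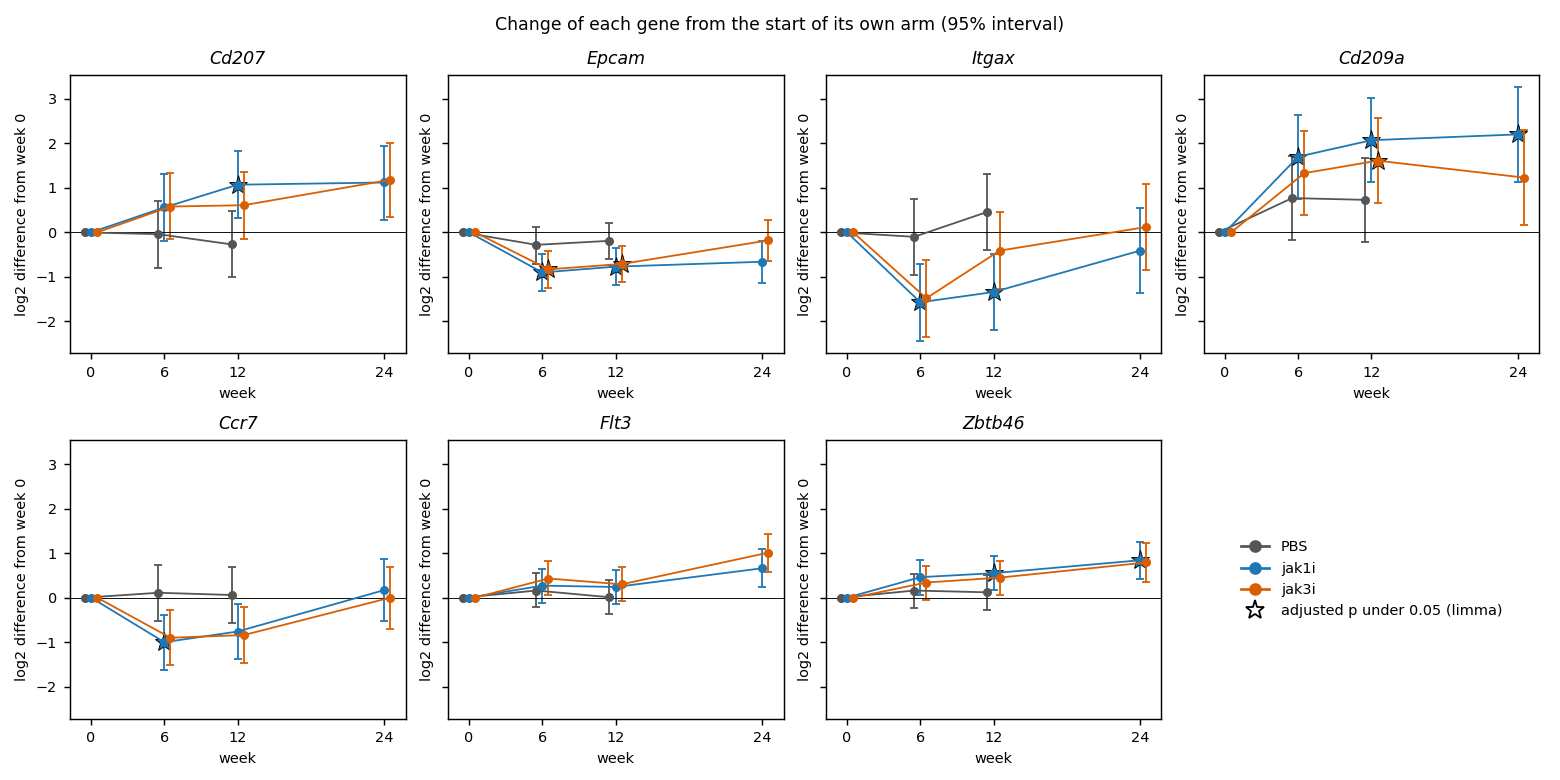
Log2 difference of each gene from the 0-week arrays of its own arm (y axis) by week (x axis), with 95% intervals from limma, for PBS, jak1i and jak3i. Stars mark an adjusted p under 0.05. Cd209a lies 2.07 above its start in jak1i at 12 weeks, and Itgax and Ccr7 lie below their starts at 6 weeks in both inhibitor arms.

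Ccr7 encodes the chemokine receptor by which mature dendritic cells, and also naive T cells, reach lymph nodes (Entrez gene 12775, chr11:99144199-99155077). It fell in jak1i skin at 6 weeks. The PBS values were 5.69, 5.54 and 5.73 at 0 weeks, 5.72, 5.51 and 6.07 at 6 weeks, and 4.95, 6.38 and 5.81 at 12 weeks. In jak1i they were 5.48, 5.60 and 6.23, then 4.50, 4.95 and 4.85, then 4.89, 5.17 and 4.97, and 6.31 and 5.58 at 24 weeks. The 6-week arrays of jak1i lay below their start and below PBS, and the difference from the start was −1.0 (SE 0.30, limma adjusted p 0.0329). At 12 weeks the difference was −0.76 (adjusted p 0.0842), and at 24 weeks it was 0.17 (adjusted p 0.825).

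The jak3i arrays read 5.70, 5.63 and 5.86, then 4.58, 4.82 and 5.11, then 4.65, 4.62 and 5.38, and 6.22 and 5.23 at 24 weeks. Their differences from the start were −0.90 at 6 weeks and −0.84 at 12 weeks, without overlap in either case, and did not pass (limma adjusted p 0.086 and 0.0676). Against PBS, Ccr7 differed by −1.0 and −0.70 in jak1i and by −0.93 and −0.83 in jak3i at 6 and 12 weeks (adjusted p between 0.0592 and 0.12). The jak1i call at 6 weeks was lost without any array other than replicate 2 of week 6 (−1.15 to −0.77, adjusted p 0.0504 to 0.15). Without PBS replicate 1, the lowest PBS array of 12 weeks, Ccr7 passed there for jak1i (−1.08, adjusted p 0.0294), and it passed for jak3i without that array or without jak3i replicate 3 (−1.21 to −1.08). From the start it passed for jak3i at 12 weeks without replicate 3 of week 12 (−1.09, adjusted p 0.0416). After centring each array on its median, Ccr7 passed for jak3i at 12 weeks against PBS (−0.91, adjusted p 0.0356) and against the start (−0.96, adjusted p 0.0464). The ligand genes Ccl19 and Ccl21a had no probe set that named them alone and were not analysed here.

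From 12 to 24 weeks, a comparison added after the data had been seen, Ccr7 differed by 0.93 in jak1i (95% interval 0.23 to 1.63) and by 0.84 in jak3i (0.14 to 1.54), and Itgax by 0.93 and 0.53. None passed (limma adjusted p 0.938 or higher), with 0.0% and 0.033% of genes passing in jak1i and jak3i and 610 and 938 genes at an unadjusted p under 0.05. Each 24-week group held a high and a low array: Itgax and Ccr7 were both higher in replicate 1 than in replicate 2, in each inhibitor arm.

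Flt3 encodes the receptor for the growth factor that drives the development of dendritic cells (Entrez gene 14255, chr5:147330741-147400489). Its values spanned 5.48 to 6.90 over the 31 arrays. At 24 weeks it read 6.25 and 6.83 in jak1i and 6.90 and 6.77 in jak3i, where the starting arrays had been 5.72, 6.04 and 5.88, and 5.82, 5.88 and 5.78. The 24-week arrays of both arms were above their own starts, by 0.66 in jak1i (SE 0.21, limma adjusted p 0.0824) and by 1.01 in jak3i (SE 0.21, adjusted p 0.0557), and neither difference passed. Without replicate 1 of week 24 the jak1i difference was 0.95 and passed (adjusted p 0.0462), with a single array left at that week that was taken to vary like the other groups. For jak3i it passed when dim genes were left out (adjusted p 0.0497). At 6 and 12 weeks Flt3 differed from PBS by 0.05 to 0.19.

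Zbtb46 encodes a transcription factor that sets conventional dendritic cells apart from other myeloid cells (Entrez gene 72147, chr2:181371009-181493262). In jak1i it read 6.42, 6.00 and 6.18 at the start, 6.94, 6.76 and 6.56 at 12 weeks, and 7.01 and 7.06 at 24 weeks. From the start it rose by 0.55 at 12 weeks (SE 0.19, limma adjusted p 0.0441) and by 0.84 at 24 weeks (SE 0.21, adjusted p 0.0493), without overlap. In jak3i the differences were 0.45 and 0.79 (adjusted p 0.103 and 0.119), again without overlap, and against PBS at 6 and 12 weeks they lay between −0.06 and 0.15 in the inhibitor arms. At 0 weeks the jak1i arrays lay below all PBS arrays (−0.36, adjusted p 0.983).

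The rise of Zbtb46 rested on 1 of its 4 probe sets. The other 3 were never above 6.18, had r of 0.13, 0.29 and −0.13 with it, and differed by −0.19, −0.06 and −0.10 in jak1i from 0 to 12 weeks. With the mean of all probe sets the difference was 0.05 at 12 weeks (limma adjusted p 0.697) and 0.25 at 24 weeks (adjusted p 0.164). The 12-week call was also lost without any array other than replicate 1 of week 0 (0.46 to 0.65, adjusted p 0.0503 to 0.174), and the 24-week call without any of the 5 arrays (0.74 to 0.95).

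**Figure D3:**
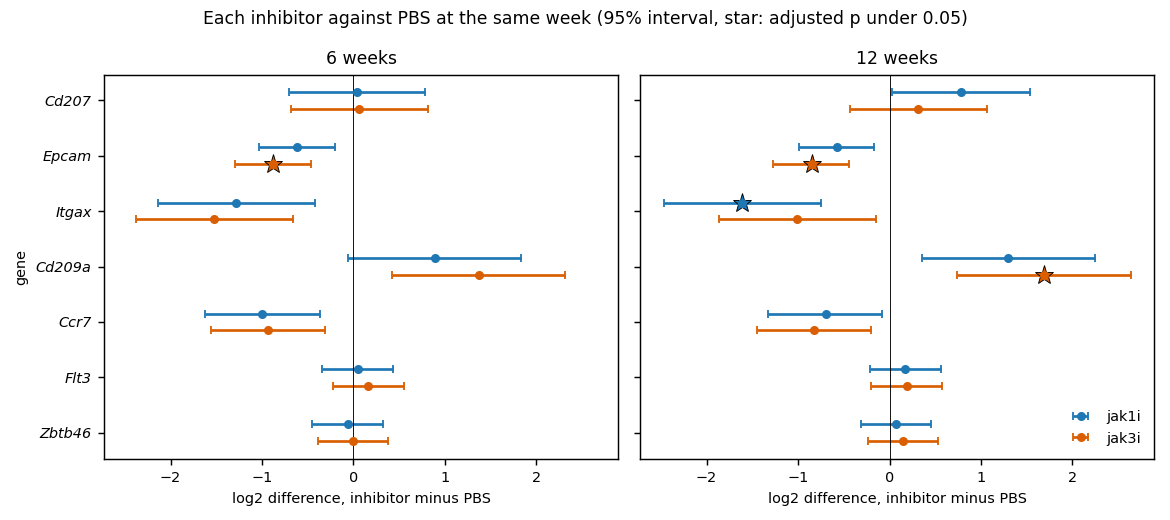
Log2 difference between each inhibitor and PBS at the same week (x axis) for the 7 genes (y axis), with 95% intervals from limma on 3 arrays a group. Stars mark an adjusted p under 0.05: Epcam in jak3i at 6 and 12 weeks, Itgax in jak1i at 12 weeks and Cd209a in jak3i at 12 weeks.

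The inhibitors were compared directly at 6, 12 and 24 weeks, and 0 members differed at any of them (0.0%, 0.0% and 0.0% of all genes, with 470, 1087 and 114 genes at an unadjusted p under 0.05 and no member among these). The largest difference among the members with 3 arrays a group was that of Itgax at 12 weeks, −0.60 for jak1i minus jak3i (95% interval −1.46 to 0.26, limma adjusted p 0.947). At the same week Cd207 was 0.47 higher in jak1i (−0.28 to 1.21) and Cd209a 0.39 lower (−1.34 to 0.56), with the groups of 3 apart for both genes. Epcam differed by 0.27 at 6 weeks (−0.15 to 0.68) and 0.27 at 12 weeks (−0.14 to 0.69). The 12-week intervals include differences of more than a doubling for Itgax, Cd207 and Cd209a, so these data do not show that the compounds acted alike.

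The order of the group means gave the members different profiles. Epcam was highest in PBS at 0 weeks (13.15 ± 0.11, SD, n = 3) and jak1i at 0 weeks (13.14 ± 0.27) and lowest in jak3i at 6 weeks (11.98 ± 0.09), and neighbours in this order overlapped except for its last pair, jak3i at 12 and at 6 weeks, which were 0.12 apart. Cd209a was highest in jak3i at 12 weeks (8.27 ± 0.14, n = 3) and lowest in the jak1i arm at the start (5.82 ± 0.12, n = 3), with every pair of neighbours overlapping. Itgax was highest in PBS at 12 weeks (8.08 ± 0.57, n = 3) and lowest in jak3i at 6 weeks (6.01 ± 0.45, n = 3), and its neighbours overlapped as well.

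Over the 31 arrays, which share their groups, Itgax ran with Ccr7 (r = 0.77, and 0.53 once group means were subtracted) and with Epcam (r = 0.73 and 0.38). Cd209a ran against Epcam (r = −0.83 and −0.51) and Itgax (r = −0.54 and −0.25). Cd207 ran against Itgax (r = −0.40 and −0.48) and had r of −0.33 with Epcam. The genes most like Itgax were Kcnn4 (r = 0.95), Itgb2, which encodes the integrin chain that pairs with CD11c, and Nfkbie (both 0.94), and within groups Clec7a (r = 0.95), the gene of the fungal glucan receptor Dectin-1. Ccr7 was most like Ccl17 (r = 0.88, and 0.85 within groups), a chemokine gene of mature dendritic cells, Icam1 (0.86) and H2-DMa (0.85). For Cd209a they were Fcrls, Thbs3 (both 0.94) and Ddah2 (0.93), and within groups Pf4 (0.90). Cd207 was nearest to Htra1 (0.89, and 0.92 within groups), Gpld1 (0.88) and Norad (0.86), and Epcam to Bok, Crabp2 and Atp10b (0.96 each). The nearest genes reached 0.79 for Flt3 (Pttg1ip) and 0.85 for Zbtb46 (Plekha3). These correlations are descriptions of the arrays.

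Related genes were read from lists chosen for the cell types. Their calls come from the same fit as those of the members. Whether they hold in the alternative fits or with single arrays left out was not examined. With the compared arrays fitted alone, 20 of all genes passed for jak1i against PBS at 6 weeks and 39 for jak3i, beside 248 and 353. In the main fit against PBS at 6 weeks, 1.22% of all genes were lower and 0.143% higher in jak1i. In jak3i these shares were 1.5% and 0.445%. At 12 weeks 6.51% were lower and 6.85% higher in jak1i, and 7.28% and 10.0% in jak3i. The list counts against PBS are to be read beside these shares. Among 10 Langerhans cell genes, Ly75, which encodes the endocytic receptor DEC-205, and Runx3, a transcription factor that Langerhans cells and cytotoxic T cells need, were lower than PBS in all 4 comparisons. Ly75 differed in jak1i by −1.50 at 6 weeks (SE 0.33, limma adjusted p 0.0238) and −1.50 at 12 weeks (adjusted p 0.00626), and in jak3i by −1.95 (adjusted p 0.00397) and −1.25 (adjusted p 0.0147). Runx3 differed by −1.37 and −0.83 in jak1i and by −1.25 and −0.93 in jak3i (adjusted p 0.00925 to 0.0305). Cd1d1, the gene of a molecule that presents lipids to T cells, had differences in the other direction, 1.45 and 0.62 in jak1i and 1.90 and 0.90 in jak3i at 6 and 12 weeks, and none passed (adjusted p 0.101 to 0.528). Il34, the gene of the keratinocyte cytokine that sustains Langerhans cells, was higher at 12 weeks by 0.89 in jak1i (adjusted p 0.0184) and 0.81 in jak3i (adjusted p 0.0257). At 12 weeks 1 gene of the list was higher and 2 lower in jak1i (median −0.10), and 1 higher and 3 lower in jak3i (median −0.05), beside −0.03 over all genes.

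Of 7 measured genes of the cDC1, the dendritic cells that cross-present antigen, 4 were lower in jak1i at 12 weeks and 2 in jak3i (medians −0.88 and −0.40), with 1 each at 6 weeks. Beside these, 6.51% and 7.28% of all genes were lower in jak1i and jak3i at 12 weeks, and 1.22% and 1.5% at 6 weeks. Itgae, which encodes the integrin chain CD103 and is also carried by T cells of the epidermis, was lower in all 4 comparisons, with differences of −1.79 and −1.63 in jak1i and −2.06 and −1.62 in jak3i at 6 and 12 weeks (SE 0.34, limma adjusted p 0.00397 to 0.0123). Batf3, a transcription factor on which cDC1 depend, was lower at 12 weeks in both (−1.14 and −1.08, adjusted p 0.0138 and 0.0158), and Irf8 in jak1i (−1.42, adjusted p 0.0175). T cell markers were lower in 4 of 6 at 6 weeks in both arms, and at 12 weeks in 3 of 6 in jak1i and 5 of 6 in jak3i. NK cell markers, 3 of 4 measured, were lower in 1 at 6 weeks and 2 at 12 weeks in each arm. Their part in the Ly75, Runx3 and Itgae results was not tested.

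Among 10 genes listed for cDC2 and dermal dendritic cells, relatives of Cd209a were higher at 12 weeks, Cd209b in both inhibitor arms and Cd209d in jak3i. Which cells carried these relatives was not tested. Of all genes 6.85% were higher and 6.51% lower in jak1i at 12 weeks, and 10.0% and 7.28% in jak3i. Cd209b was higher at 12 weeks in jak1i by 2.43 (SE 0.56, 5.39-fold, limma adjusted p 0.00846) and in jak3i by 2.83 (SE 0.56, 7.10-fold, adjusted p 0.00345), and Cd209d in jak3i by 2.16 (SE 0.55, adjusted p 0.0132). In jak1i the Cd209d difference, 1.54, did not pass (adjusted p 0.0654). Itgam, the gene of CD11b, was lower in jak1i at 12 weeks (−1.43, adjusted p 0.0226). The list counted 1 higher and 1 lower in jak1i (median 0.16) and 2 higher in jak3i (median 0.48) at 12 weeks, and none in either direction at 6 weeks, where Cd209b differed by 0.59 and 1.37 (adjusted p 0.609 and 0.204) and Cd209d by 0.62 and 1.26 (adjusted p 0.587 and 0.243).

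Genes of mature dendritic cells, 14 measured, had medians between −0.64 and −0.57 in the 4 comparisons, with few calls. At 6 weeks 1 was lower in jak1i and 2 in jak3i, and at 12 weeks 2 and 1. The shares of all genes that were lower were 1.22% and 1.5% at 6 weeks, and 6.51% and 7.28% at 12 weeks. Cd274, which encodes the inhibitory ligand PD-L1, was lower in jak3i at 6 weeks (−2.03, SE 0.51, limma adjusted p 0.0379), and Fscn1, the gene of the actin bundler fascin of migrating dendritic cells, in jak1i at 12 weeks (−1.63, SE 0.45, adjusted p 0.0217). Ccl17 differed by −1.81 to −1.50 and did not pass (adjusted p 0.117 to 0.293).

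MHC class II genes, through which dendritic cells show antigen to helper T cells, were lower in 5 of 7 at 12 weeks in each arm (medians −0.81 and −0.85), and at 6 weeks in 2 of 7 in jak1i and 1 of 7 in jak3i (medians −0.92 and −0.77). Of all genes 6.51% and 7.28% were lower in jak1i and jak3i at 12 weeks, and 1.22% and 1.5% at 6 weeks. Ciita, the gene of their master activator, was lower in all 4 comparisons, with differences of −1.44 and −0.97 in jak1i and −1.48 and −0.95 in jak3i (limma adjusted p 0.00673 to 0.0234). H2-DMa differed by −1.13 and −1.20 at 12 weeks (adjusted p 0.0136 and 0.00898). H2-Ab1, which encodes a class II beta chain, was lower in jak1i at both weeks (−0.97 and −0.91, adjusted p 0.0478 and 0.0185) and in jak3i at 12 weeks (−1.0, adjusted p 0.0107), and its difference in jak3i at 6 weeks, −0.89, did not pass (adjusted p 0.0595). From the start of its own arm, jak1i had 5 of 7 class II genes lower at 6 weeks and jak3i had 2 (12.4% and 3.15% of all genes changed). At 12 weeks 0 of 7 were changed from the start in either arm (medians −0.52 and −0.43, beside 16.3% and 10.3% of all genes). At 24 weeks, with 2 arrays a group, 0 of 7 were changed from the start in jak1i and 1 was higher in jak3i. Of all genes 1.19% and 0.11% were changed there.

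Among 9 plasmacytoid genes, Bst2 and Irf7, which interferon also induces in other cells, led the list. Bst2 was lower in all 4 comparisons, with differences of −1.91 and −2.51 in jak1i and −1.79 and −1.55 in jak3i (limma adjusted p 0.00277 to 0.0497). Irf7 was lower in 3 of them (−2.23, −2.18 and −1.91), and its difference in jak3i at 12 weeks was −0.87 (adjusted p 0.174). Ccr9, a chemokine receptor gene, was lower in jak1i at 12 weeks (−0.77, adjusted p 0.0189), and its other differences, −0.59 to 0.02, did not pass. The list held 2 lower genes in each arm at 6 weeks, 4 lower in jak1i at 12 weeks, and 1 lower and 1 higher in jak3i. Over all genes, 1.22% and 1.5% were lower in jak1i and jak3i at 6 weeks, and 6.51% and 7.28% at 12 weeks. Of 8 growth factor and receptor genes of dendritic cells, 0 passed at 6 weeks, and at 12 weeks 1 was higher, Il34, and 1 lower in each arm, Csf2, the gene of GM-CSF, named here after its values were seen (−0.45 in jak1i and −0.50 in jak3i, limma adjusted p 0.0483 and 0.026). Kitl, the gene of stem cell factor, differed by 0.56 to 1.12 over the 4 comparisons (limma adjusted p 0.0896 to 0.308), and Csf2rb, the gene of a receptor chain for GM-CSF, by −0.79 to −0.01 (adjusted p 0.108 to 0.979), and none of these passed. Of 4 lymphocyte homing genes measured, Il7r was lower in jak1i at 6 and 12 weeks (−1.06 and −0.99, adjusted p 0.0334 and 0.0136), and S1pr1 was higher in jak3i at 12 weeks (1.23, limma adjusted p 0.0327). Lef1 differed by −0.89 to −0.39, and none of these differences passed (adjusted p 0.388 to 0.836).

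**Figure D4:**
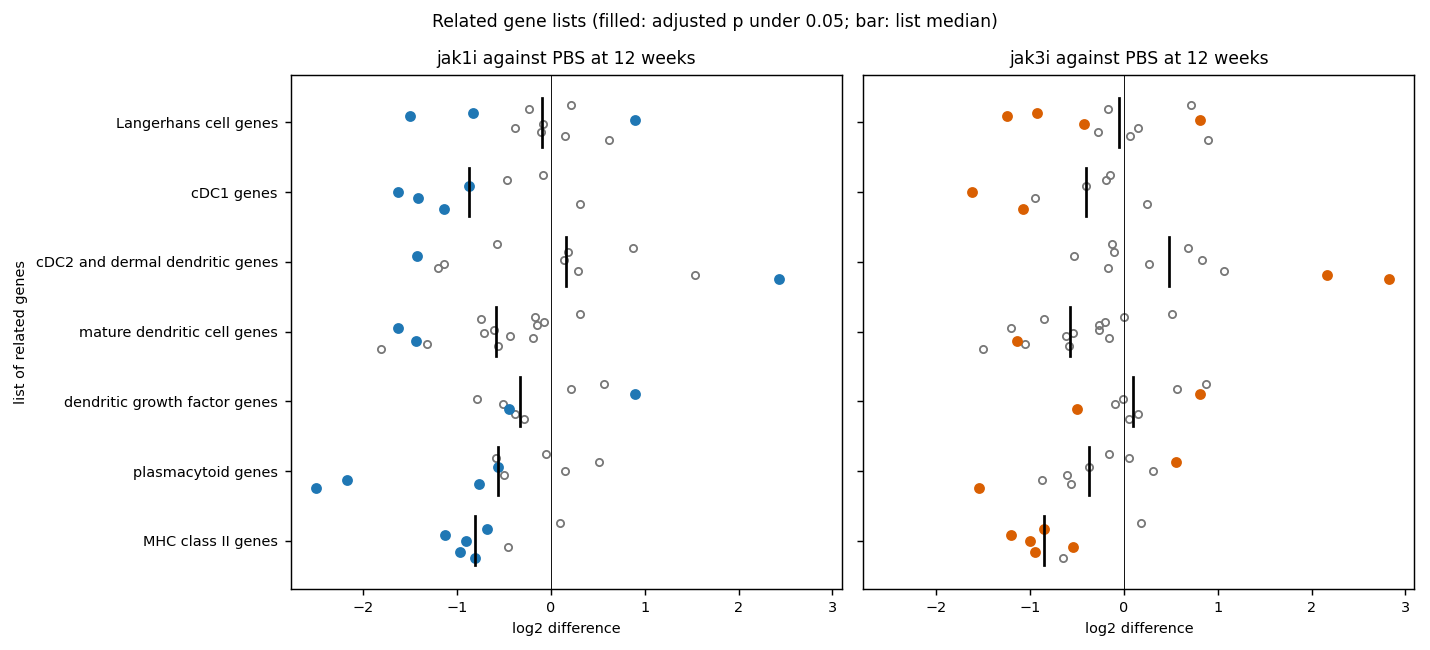
Log2 difference of each inhibitor from PBS at 12 weeks (x axis) for every measured gene of 7 lists of related genes (y axis). Filled points have a limma adjusted p under 0.05, open points do not, and bars are list medians. Filled points of the MHC class II and cDC1 lists lie to the left of 0 in both panels, and those of Cd209b at 2.43 and 2.83 lie farthest to the right.

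Among the other marker lists, skeletal muscle markers were higher than PBS in 8 of 8 at 12 weeks in each inhibitor arm (medians 5.48 and 5.35) and in 0 of 8 at 6 weeks. Their part in the 12-week results was not tested. Sebaceous markers were higher in 4 of 6 at 12 weeks in each arm. Against PBS at 12 weeks, 6.85% and 10.0% of all genes were higher in jak1i and jak3i, and 6.51% and 7.28% lower. At 6 weeks 1.36% and 1.94% of all genes changed. B cell markers (5 of 6 measured) had 0 changed at 6 weeks and 1 lower in each arm at 12 weeks. Neutrophil markers (4 of 5) had 2 lower in jak1i at 12 weeks. Macrophage markers had 1 higher and 2 lower in jak1i at 12 weeks and 1 higher in jak3i at both weeks. Against PBS, mast cell markers had 0 of 5 changed, with medians between 0.86 and 1.88. Keratinocyte markers had 0 of 8 changed, with medians between −0.23 and 0.02. At 12 weeks hair shaft markers were lower in 1 of 10 in jak1i and 4 of 10 in jak3i. Follicle bulge and germ markers were higher in 2 of 7 in each arm and lower in 1 in jak3i. From the start of their own arm, 4 of 5 mast cell markers were higher in jak1i at 6 weeks and 3 at 12 weeks (12.4% and 16.3% of all genes changed). In jak3i 0 were higher at 6 weeks and 1 at 12 weeks (3.15% and 10.3%). At 24 weeks 0 were changed from the start in either arm.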

How the data were processed

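RNA of mouse skin was hybridised to Affymetrix arrays after extraction with the Qiagen miRNeasy kit and labelling with the 3' IVT Express Kit, per the labels' protocols. The deposited log2 values were made by the authors with RMA, per the submitters' processing notes, with no version given. RMA equalises the distributions of the arrays, so a shift shared by most genes would be removed. The values span 2.59 to 14.69, with array medians of 6.05 to 6.24, and neither detection calls nor scan dates were used. The number of arrays limits the precision.

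Of 45101 probe sets, 64 of them controls, 34958 named 1 symbol, 932 several and 9211 none, and 34741 of the first were matched by Entrez identifier to the reference, changing 0 symbols. The week was read from the treatment time with the W of the titles. A single model of 11 group means was fitted with limma 3.58.1 in R 4.3.3 (20 residual and 2.5 prior degrees of freedom), with 21 contrasts, 2 of them added after the data had been seen. The code was tested on simulated data. Adjusted p-values are Benjamini-Hochberg over 18193 genes. p-values measure the spread between these samples.

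The members and the gene lists were chosen with earlier results of these data known. Named genes are the members, the 3 of each related list with the largest difference in the 4 comparisons of inhibitor and PBS at 6 and 12 weeks, and, from the 3 genes most correlated with each member over the arrays or within groups, those with the highest correlations. Alternatives were array centring, a filter on dim genes (fewer than 2 arrays above 6.18, 12825 genes left), the mean of all probe sets, a trended robust variance, the compared arrays alone, the replicate number as a block, the hair shaft mean as a covariate, PBS at 6 weeks as control for 12 weeks, and leaving out each array.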

Additional observations from a re-analysis of the deposited data

How the results depend on the processing

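Of 18 called differences of single members, 0 turned sign under any alternative, 4 stayed called with the hair shaft covariate, 11 with the compared arrays alone, 16 with the replicate block (Zbtb46 in jak1i was lost at 12 weeks, 0.55, adjusted p 0.0574, and at 24 weeks, 0.82, adjusted p 0.0604) and 1 with each array left out in turn. Of 129 uncalled differences, 19 turned sign under some alternative and 43 when an array was left out, and 9 and 11 became called. Dim genes left out gave counts of called members of 2 (jak3i against PBS, 6 weeks, 1 in the report), 3 (jak1i against PBS, 12 weeks, 1), 2 (jak3i, 6 weeks against start, 1), 1 (jak3i, 24 weeks against start, 0) and 1 (jak1i change less PBS change, 0), with fewer genes tested. The compared arrays alone gave 0 (jak3i against PBS, 6 weeks), 1 (jak1i, 6 weeks against start, 4), 1 (jak1i, 24 weeks against start, 2), 0 and 1 (jak3i, 6 and 12 weeks against start, 1 and 2) and 1 (jak1i change less PBS change), with fewer samples. The hair shaft covariate gave 0 for jak3i against PBS at 6 weeks and for both inhibitors at 12 weeks, 1 for jak1i at 12 weeks against its start (5), and 0 for jak1i at 24 weeks and jak3i at 6 and 12 weeks against their starts. PBS at 6 weeks as control gave 0 for jak1i and 1 for jak3i at 12 weeks. For jak1i at 24 weeks against its start the mean of probe sets gave 0, the trended variance 1 and the replicate block 1. The replicate block gave 1, Flt3 (1.05, adjusted p 0.0413), for jak3i at 24 weeks against its start, and array centring gave 2 for jak3i at 6 weeks against its start. Deviations from the group means had r over 0.1 in 15 of 55, 23 of 55 and 12 of 36 pairs of arrays numbered 1, 2 and 3 (median r −0.06, 0.03 and 0.01, highest 0.56, 0.56 and 0.63). The numbers were not taken as pairs. These pairs mix arrays of the same arm with arrays of different arms, so the check cannot show whether a mouse was sampled more than once. Where no construction of the alternative is named, the cause was not tested.

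With each array left out in turn the counts ranged from 0 to 3 for jak3i against PBS at 6 weeks and for jak1i at 12 weeks, and from 1 to 3 for jak3i at 12 weeks. Against the start they ranged in jak1i from 1 to 4, 2 to 3 and 0 to 1 at 6, 12 and 24 weeks, and in jak3i from 0 to 3 and 0 to 2 at 6 and 12 weeks. For the jak1i change less the PBS change the range was 0 to 1. Ccr7 and Flt3 lay below the array median on most arrays, which limits what their differences can show.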
